A study of Mus musculus with 24 samples.

Results

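The genes described here make the building blocks of DNA or act at the replication fork: Tk1, Tyms, Rrm1, Rrm2, Dut, Pcna, Lig1 and 2810417H13Rik. They were taken by symbol, 8 of the 27297 gene entries of the table, and all 8 were found. Dut is listed under 2 names in 1 entry (Dut and Dutp), and the current RefSeq symbol of 2810417H13Rik is Pclaf. They were measured in single haematopoietic stem cells (HSCs), the bone marrow cells that renew all blood lineages, sorted as LSK (low in lineage markers, positive for Sca-1 and Kit), CD150+ and CD48-. All cells came from the mouse strain -60/DR5-TA-RA-CFP, which carries a reporter for retinoic acid signalling that makes cyan fluorescent protein (CFP). The cells compared below share this strain and sort and were grouped by their recorded CFP, forward scatter, plate and map group. The study asked how differences in cell cycle status relate to transcriptional differences among HSCs. Each cell's CFP brightness was recorded at the sort, and the deposited record also gives each cell a map group, a whole number from 1 to 10 with no stated meaning or origin.

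A dividing cell must copy its DNA in S phase, and for that it needs balanced deoxynucleotides. Ribonucleotide reductase, built from the Rrm1 and Rrm2 proteins, makes deoxynucleotides from ribonucleotides. Thymidylate comes from Tyms (made new from dUMP) or from Tk1 (salvaged from thymidine), and Dut removes dUTP so that uracil is not built into DNA. At the fork, Pcna is the sliding clamp that holds polymerases on DNA, Lig1 joins the fragments of the lagging strand, and the Pclaf protein binds Pcna. Most HSCs of adult marrow are out of cycle, so only a minority is in S phase at any time.

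The table held 1430 cells with an index record from sort plates 2, 3, 4 and 5 (356, 345, 361 and 368 cells), with 511 to 6026 unique molecular identifiers (UMIs, counted RNA molecules) per cell and a median of 1265. Levels are UMIs of a gene per 1000000 UMIs of the summed cells (CPM). No mouse is named for a cell, and the 4 plates serve as technical replicates, so errors and p-values describe the spread between plates and not between mice. UMIs of all 12 HSC marker genes looked for were present, with 8697 UMIs in all. Of 8 genes of mature B, T and NK cells, Cd79a, Ms4a1, Cd3e and Cd3g were at 0 and the other 4 gave 766 UMIs, and 6 mature myeloid genes gave 800 UMIs. The 6 erythroid markers in the table summed to 115319 CPM in map group 1, against 2801 to 3859.9 CPM in groups 2 to 10, and the 10 cells of group 1 are left out of the comparisons of groups.

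The promoters of the 4 genes below are shown because the 8 genes are compared as a set below and these 4 hold letters that known promoter factors bind. Sequences are from RefSeq (GRCm38.p6), where all 8 genes matched, and read 5′ to 3′ on the gene's strand up to the base before the transcription start, or, for Pclaf, 5 bases past it. Capitals mark CCAAT (or ATTGG on the other strand), the letters of nuclear factor Y, and in Pclaf also GCGGGAAA, the reverse complement of the E2F letters TTTCCCGC.
Rrm1 (chr7:102441590-102441694, + strand): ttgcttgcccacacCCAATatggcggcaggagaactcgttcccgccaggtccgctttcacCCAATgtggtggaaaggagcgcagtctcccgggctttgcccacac
Rrm2 (chr12:24708149-24708253, + strand): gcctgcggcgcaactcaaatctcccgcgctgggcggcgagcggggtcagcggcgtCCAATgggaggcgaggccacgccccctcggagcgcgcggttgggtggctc
Pcna (chr2:132253181-132253285, - strand): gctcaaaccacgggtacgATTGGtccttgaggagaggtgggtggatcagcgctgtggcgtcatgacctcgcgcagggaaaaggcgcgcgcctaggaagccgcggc
2810417H13Rik/Pclaf (chr9:65890218-65890327, + strand): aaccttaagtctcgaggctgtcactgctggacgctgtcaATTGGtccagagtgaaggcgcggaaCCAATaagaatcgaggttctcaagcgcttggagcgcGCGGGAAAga

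Over the full windows of the RefSeq table, CCAAT was found on either strand in 4 of the 8 promoters, at 2 places each in Rrm1 and Pclaf, against 37.4% of 32851 promoters of the same length. The E2F letters searched (TTTCCCGC, TTTCGCGC, TTTGCCGC and TTTGGCGC, both strands) were found in 1 of the 8, Pclaf, where they span the start site from base -5 to base 3, against 2.26% of all promoters. TTTGAA, the letters of the cell-cycle homology region, were found in 0 of the 8, against 17.9%. No match of 1 motif overlapped another in these genes. Tk1, Tyms, Dut and Lig1 held none of these letters, which says only that they are not in these windows.

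CFP-bright HSCs had far more RNA of these genes than dim HSCs. Cells were ranked by CFP plate by plate: the top 20% (286 cells) are called bright, the bottom 20% (286) dim and those between (858) intermediate. UMIs were summed per plate and fraction. The summed level of the 8 genes was 2594, 2592, 2463 and 2546 CPM in bright cells of plates 2, 3, 4 and 5. In intermediate cells it was 979, 917, 1162 and 1099 CPM, and in dim cells 634, 634, 747 and 564 CPM. Every plate of a brighter fraction lay above every plate of the next dimmer one. In edgeR's quasi-likelihood test with the plate as a block and Benjamini-Hochberg adjustment over 4652 genes, 7 of the 8 genes were called higher in bright than in dim cells, and Rrm1 was not called. Of all genes tested, 5.61% were called higher and 3.44% lower. By the plate values alone, 6 of the 8 genes were above dim and above intermediate cells without overlap, as were 6.04% and 5.33% of all genes, and 0 of the 8 were so between intermediate and dim cells (1.46% of all genes).

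**Figure D1:**
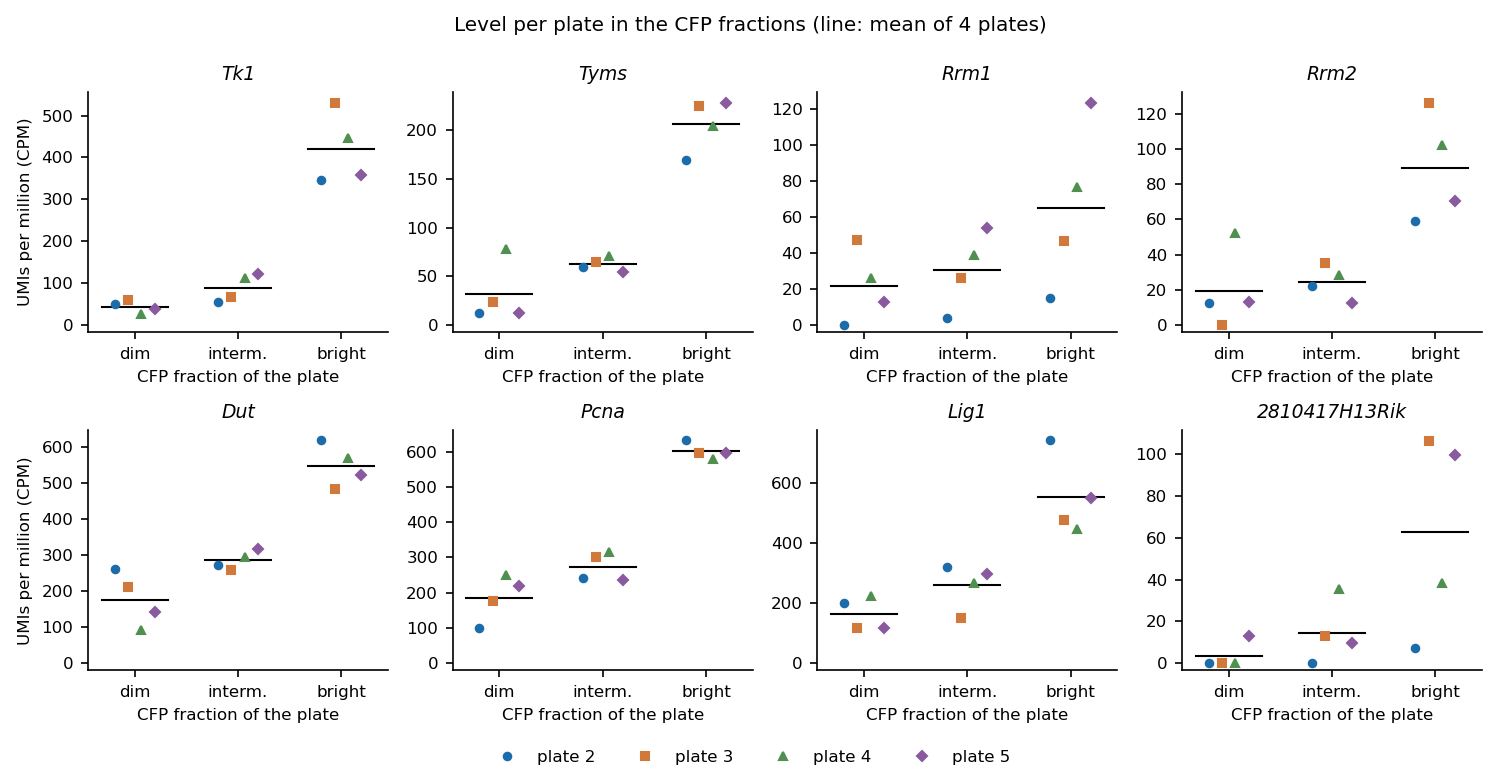
Level of each gene in CPM (vertical axes, own scale per gene) in the dim, intermediate and bright CFP fraction; each point is 1 plate and each line the mean of 4 plates. Bright plates lie above all others for Tk1, Tyms, Rrm2, Dut, Pcna and Lig1, whereas Rrm1 and 2810417H13Rik overlap.

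Both routes to thymidylate were higher in bright cells. Tk1 was at 346, 530.4, 447 and 357 CPM in bright cells of plates 2, 3, 4 and 5, at 56.1, 67.8, 113 and 121 CPM in intermediate cells and at 49.7, 58.7, 26.2 and 38.5 CPM in dim cells. All 4 bright values lay above every other value, while intermediate and dim cells overlapped. The log2 fold change of bright against dim cells was 3.22 ± 0.30 (SE; edgeR adjusted p = 3.8e-20), a 9.30-fold difference. Tyms was at 169, 225, 204 and 228 CPM in bright cells, at 59.8, 64.6, 70.6 and 54.0 CPM in intermediate cells and at 12.4, 23.5, 78.6 and 12.8 CPM in dim cells. Its bright values again stood clear of the rest, and the dim value of plate 4 was above all intermediate ones. The log2 fold change was 2.69 ± 0.39 (edgeR adjusted p = 5.5e-09), and 3.61 without plate 4. Dut, which hydrolyses dUTP to the dUMP that Tyms uses, was at 619, 484, 568 and 521 CPM in bright cells, at 273, 258, 293 and 318 CPM in intermediate cells and at 261, 211, 91.7 and 141 CPM in dim cells. Bright cells stood apart in every plate, and the log2 fold change was 1.60 ± 0.19 (edgeR adjusted p = 1.6e-12).

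The 2 ribonucleotide reductase genes were sparse, with 86 UMIs of Rrm1 and 90 of Rrm2 in all cells. Rrm2, the subunit whose level follows S phase, was at 59.0, 126, 102 and 70.2 CPM in bright cells, at 22.4, 35.5, 28.2 and 12.7 CPM in intermediate cells and at 12.4, 0, 52.4 and 12.8 CPM in dim cells. No dim value reached the bright ones, although the dim value of plate 4 came from only 4 UMIs. The log2 fold change was 2.20 ± 0.61 (edgeR adjusted p = 0.0054), and without plate 3 it was 1.57 and no longer called (edgeR adjusted p = 0.16). Without plate 4 it was 3.27. Rrm1, the large subunit, was at 14.7, 46.4, 76.6 and 123 CPM in bright cells, at 3.74, 25.8, 38.8 and 54.0 CPM in intermediate cells and at 0, 46.9, 26.2 and 12.8 CPM in dim cells. The spread between plates was as wide as that between fractions, and bright exceeded dim in 3 of 4 plates. Its log2 fold change of 1.49 ± 0.63 did not pass (edgeR adjusted p = 0.12), nor did the 2.37 found without plate 3 (edgeR adjusted p = 0.053).

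Pcna, Lig1 and 2810417H13Rik, the fork genes, were called higher as well. Pcna was at 634, 597, 581 and 597 CPM in bright cells, at 243, 300.2, 314 and 235 CPM in intermediate cells and at 99.4, 176, 249 and 218 CPM in dim cells. The bright plates lay within a narrow band, well above the rest. The log2 fold change was 1.69 ± 0.19 (edgeR adjusted p = 1.7e-14). Lig1 was at 744, 477, 447 and 550.2 CPM in bright cells, at 321, 152, 268 and 295 CPM in intermediate cells and at 199, 117, 223 and 115 CPM in dim cells. Bright cells again did not overlap with the others, and plate 2 held the highest and plate 3 the lowest intermediate value. The log2 fold change was 1.74 ± 0.20 (edgeR adjusted p = 6.1e-14). 2810417H13Rik gave 40 UMIs in bright cells, 17 in the intermediate ones and 1 in the dim ones, at 7.37, 106, 38.3 and 99.5 CPM in bright cells of plates 2 to 5. Bright and dim cells overlapped because plate 2 held 1 UMI of this gene in all. The pooled ratio of bright to dim cells was 20.8 (95% interval for counting error 3.53 to 844), and the fitted log2 fold change was 4.03 ± 1.10 (edgeR adjusted p = 0.0028). By DESeq2 it was not called (adjusted p = 0.057), nor with fractions of 10% (edgeR adjusted p = 0.087).

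The difference lay mainly at the bright end of the CFP range. Bright against intermediate cells gave the same 7 calls, with 5.42% of all genes called higher, and log2 fold changes from 0.91 ± 0.13 for Dut to 2.19 ± 0.18 for Tk1. Rrm1 was at 1.06 ± 0.43 there and did not pass. Matching on UMIs per cell paired bright with dim cells and kept all intermediate cells, so bright and intermediate cells were not matched in depth. In that fit only Pcna of the 5 genes that could be tested was still called by edgeR (0.82 ± 0.20, adjusted p = 0.035), beside 0.54% of all genes. Tk1 (1.48, adjusted p = 0.051), Dut (0.73, 0.057), Lig1 (0.76, 0.059) and Tyms (1.21, 0.43) were not. Without groups 8 to 10, 0 of the 3 genes that could be tested were called, beside 0% of all genes. An unadjusted p under 0.05 was found for 2 of the 3 and for 111 of 2466 genes. 2810417H13Rik was not called by DESeq2 (adjusted p = 0.091). Intermediate against dim cells gave 0 of 8 calls by edgeR, although 5 had an unadjusted p under 0.05, and DESeq2 gave 0 as well. Of all genes 0.0215% were called higher, and 342 of 4652 had an unadjusted p under 0.05. All 8 estimates were positive, and Tk1 had 1.03 ± 0.39, Dut 0.69 ± 0.20, Lig1 0.66 ± 0.21 and Pcna 0.57 ± 0.20. Tyms (0.98 ± 0.47), Rrm1 (0.44 ± 0.68), Rrm2 (0.39 ± 0.72) and 2810417H13Rik (1.96 ± 1.43) had wider errors. The median over all genes was -0.0011, and the share of all genes with a positive estimate was not counted. These comparisons share fractions and are not independent of each other. With each plate cut into 5 equal classes by CFP rank, the summed level was 644 ± 77.7 CPM in the dimmest class (SD, n = 4 plates), then 681 ± 99.0, 1024 ± 181, 1354 ± 226 and 2549 ± 61.5 CPM in the brightest. The 2 dimmest classes overlapped, and the step to the brightest class was the widest.

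**Figure D2:**
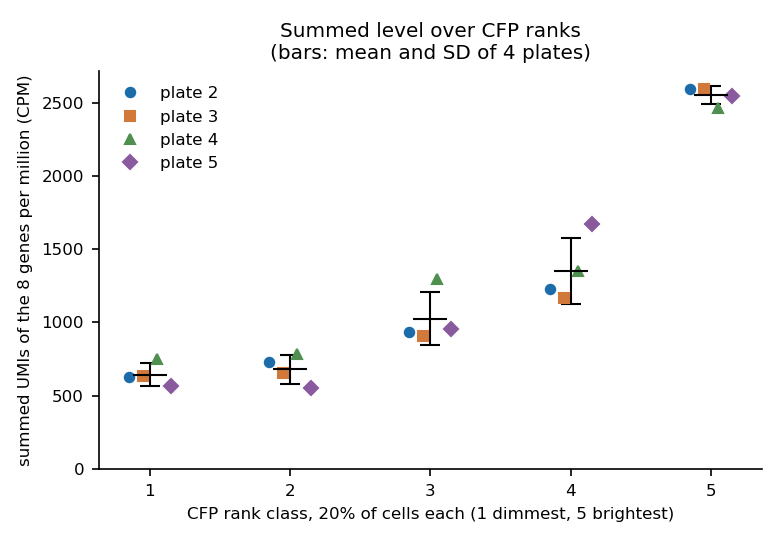
Summed CPM of the 8 genes (vertical axis) in 5 equal classes of each plate by CFP rank (horizontal axis, 5 brightest); points are plates and bars the mean and SD of 4 plates. The brightest class sits at 2549 ± 61.5 CPM, above all plates of class 4 at 1354 ± 226 CPM.

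Bright cells also differed in depth and map group. The plate medians of UMIs per cell averaged 1829.6 ± 118 for the bright fraction (SD, n = 4 plates), 1251 ± 136 for the intermediate and 1091 ± 109 for the dim one. Map groups 8 to 10 held 66.7 ± 7.09% of the bright fraction, 24.9 ± 4.96% of the intermediate and 9.49 ± 5.12% of the dim one. The 12 HSC markers summed to 2867 CPM in bright cells (plates from 2203 to 3169) and 5122 CPM in dim cells (3020.1 to 6322). Megakaryocyte markers summed to 608 CPM (486 to 825) against 412 CPM (286 to 576), and mature myeloid markers to 319 CPM (36.8 to 504) against 487 CPM (162 to 654). The mature B, T and NK cell genes summed to 281 CPM (192 to 484) against 479 CPM (373 to 629). Of these lists, 5 of the 12 HSC markers and Cd74, the antigen presentation chain, were called lower in bright cells (Cd74 -1.19 ± 0.22, edgeR adjusted p = 6.4e-06). Of all genes tested, 3.44% were called lower. The 6 myeloid progenitor markers summed to a similar level, 2173 CPM in bright cells (plates from 1783 to 2749) and 2220 CPM in dim cells (2007 to 2622). Of these 6 markers, the granule genes Mpo (-1.71 ± 0.55, edgeR adjusted p = 0.025) and Prtn3 (-0.57 ± 0.12, adjusted p = 0.00025) were called lower. As the sum was similar, these calls do not describe the list as a whole. The part of these lists in the result was not tested. With bright and dim cells matched on UMIs per cell, Tk1 (log2 fold change 2.26 ± 0.57), Dut (1.24 ± 0.28), Pcna (1.35 ± 0.29) and Lig1 (1.20 ± 0.29) were still called by edgeR, beside 1.08% of 1667 genes called higher. Tyms was not (1.84 ± 0.74, edgeR adjusted p = 0.24), and the remaining 3 genes were too sparse to be tested there. With groups 8 to 10 left out before ranking, 3 of the 8 genes could be tested. By edgeR 0 were called, beside 0.122% of 2466 genes called higher. An unadjusted p under 0.05 was found for 2 of the 3 and for 163 of the 2466 genes. Dut was at 0.89 ± 0.30 (edgeR adjusted p = 0.45), Pcna at 0.39 ± 0.28 (0.84) and Lig1 at 1.02 ± 0.35 (0.46).

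Across map groups the sum of the 8 genes was highest in group 9. So was the mean over plates of each gene except 2810417H13Rik, at 76.7 ± 103 CPM in group 10 and 67.4 ± 52.7 CPM in group 9 (SD, n = 4 plates). The group number may have been made from these same counts, so the levels are given as a description without a test. The summed level in plates 2, 3, 4 and 5 was 2919, 3323, 3193 and 2912 CPM in group 9 (188 cells) and 1025, 1585, 2181 and 2806 CPM in group 8 (202 cells). In group 10 (42 cells) it was 539, 2168, 947 and 514 CPM, and in group 4, the most populous at 330 cells, 431, 512, 604 and 403 CPM. Group 9 lay above every plate of the other groups, whereas group 8 spread widely between plates. In order of the mean, group 9 (3087 ± 205 CPM, SD, n = 4 plates) was followed by group 8 (1899 ± 767), group 10 (1042 ± 776), group 7 (1003 ± 146), group 6 (947 ± 630.4), group 5 (825 ± 115), group 3 (640.3 ± 68.7), group 2 (618 ± 87.0) and group 4 (487 ± 90.2). From group 8 down, each group overlapped with the next. Without plate 3 group 10 was at 667 CPM, below the means of groups 5, 6 and 7. Between groups 9 and 4, 7 of the 8 genes did not overlap (all but Rrm1), as did 8.77% of all genes in that direction. Between groups 8 and 4 this held for Dut, Pcna and Lig1, 3 of the 8, and for 3.83% of all genes.

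**Figure D3:**
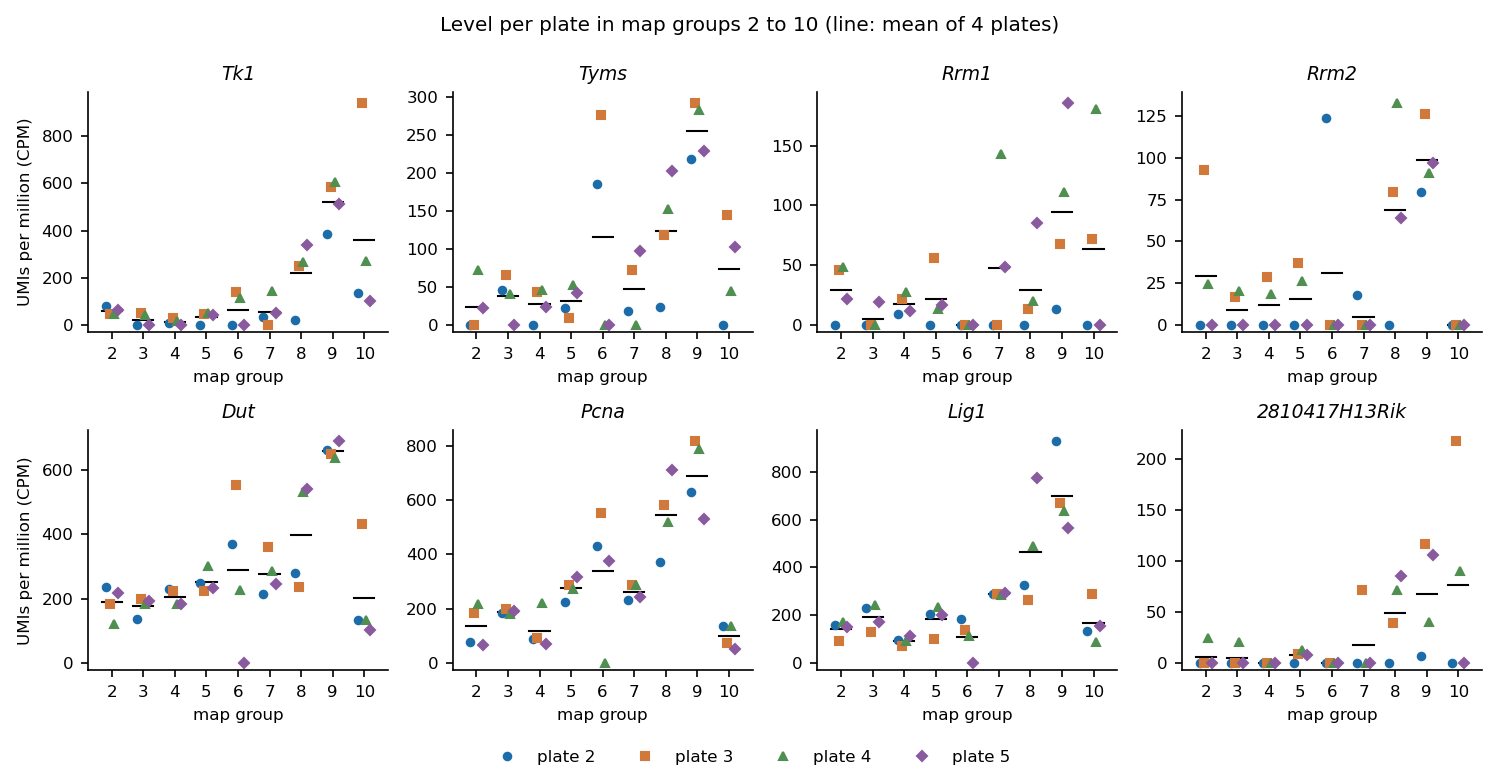
Level of each gene in CPM (vertical axes, own scale per gene) in map groups 2 to 10 (horizontal axis); points are plates and lines the mean of 4 plates. Most genes peak in group 9 with group 8 spread widely below it, and in group 10 Pcna, Lig1, Dut, Tyms and Rrm2 lie under group 9 in every plate.

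Groups 8 to 10 held 30.2% of the cells and 40.5% of all UMIs but 71.7% of the UMIs of these genes. By gene the share was 89.7% for 2810417H13Rik, 89.4% for Tk1, 78.7% for Tyms, 77.8% for Rrm2, 72.8% for Lig1, 67.2% for Pcna, 66.3% for Rrm1 and 62.5% for Dut. Tk1 and 2810417H13Rik were thus the most restricted to these groups, and Dut and Pcna were also found at a lower level in the others. In group 4, Dut remained at 229, 224, 183 and 184 CPM in plates 2, 3, 4 and 5, against 662, 651, 637 and 688 CPM in group 9. Tk1 in group 4 was at 8.80, 28.8, 18.3 and 0 CPM, against 384, 583, 606 and 512 CPM in group 9. The ratio of group 9 to group 4 over summed cells was therefore 3.19 for Dut and 32.4 for Tk1. 2810417H13Rik had 0 UMIs in group 4 and 62.2 CPM in group 9, at least 9.30-fold higher when 3 UMIs are set as the limit for group 4 as a whole.

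Between groups 9 and 8, the 3 genes of thymidylate supply, Tk1, Tyms and Dut, did not overlap, and 3.35% of all genes lay above group 8 in this way. The pooled ratio of group 9 to group 8 was 2.02 for Tk1, 1.77 for Tyms and 1.54 for Dut. It was 2.48 for Rrm1, higher in 4 of 4 plates on 41 and 11 UMIs, 1.45 for Lig1, 1.20 for Rrm2, 1.19 for Pcna and 1.07 for 2810417H13Rik, whose plates overlapped. Plate 2 set part of this spread, since its group 8 (35 cells) held 1 UMI each of Tk1 and Tyms and 0 of Rrm1, Rrm2 and 2810417H13Rik. Without plate 2, group 8 had a mean of 2191 CPM.

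Group 10 lay below group 9 without overlap for some of these genes and overlapped with it for others. Pcna was at 135, 72.3, 135 and 51.4 CPM in group 10, 0.151 times the pooled level of group 9, and Lig1 at 135, 289, 90.2 and 154 CPM, 0.214 times. Tyms (0.256 times) and Dut (0.273 times) were lower in every plate as well. Rrm2 had 0 UMIs in group 10 and 96.5 CPM in group 9, at least 2.50-fold lower with 3 UMIs as the limit for the group. In all, 5 of the 8 genes were above group 10 without overlap, as were 6.41% of all genes. Tk1 differed less, with 135, 939, 270.5 and 103 CPM in group 10 and a pooled ratio of 0.610. Plate 3 of group 10 was above all of group 9 for Tk1 and the other plates below it. 2810417H13Rik had 5 UMIs in group 10 and a ratio of 1.03, and Rrm1 had 5 UMIs there and a ratio of 0.732. With 42 cells and 77722 UMIs, group 10 rests on few molecules.

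The share of cells with UMIs of several of these genes was also highest in group 9. Such a share rises with the level of each gene alone, and co-occurrence beyond that was not tested. After thinning each cell of at least 1000 UMIs to 1000 (1025 cells), 300 cells, 29.3%, had UMIs of at least 2 of the 8 genes (exact 95% interval 26.5 to 32.2%, for counting error only). The share was 68.0% in group 9 (121 of 178 cells, 60.6 to 74.8%), 48.8% in group 8 (80 of 164, 40.9 to 56.7%), 23.3% in group 10 (7 of 30, 9.93 to 42.3%) and 10.4% in group 4 (25 of 241, 6.83 to 14.9%). Without thinning, the share of cells with Tk1 was 53.2% in group 9 and 20.8% in group 8. With thinning it was 34.8% and 17.7%. By CFP, at least 2 genes were found in 52.9% of the bright, 22.9% of the intermediate and 15.7% of the dim fraction. Thinning kept 255 of 286 bright, 611 of 858 intermediate and 159 of 286 dim cells. The 106 wells without an index record held 25068 UMIs, 19 of them of these genes, which is 758 CPM against 1418 CPM in the recorded wells.

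**Figure D4:**
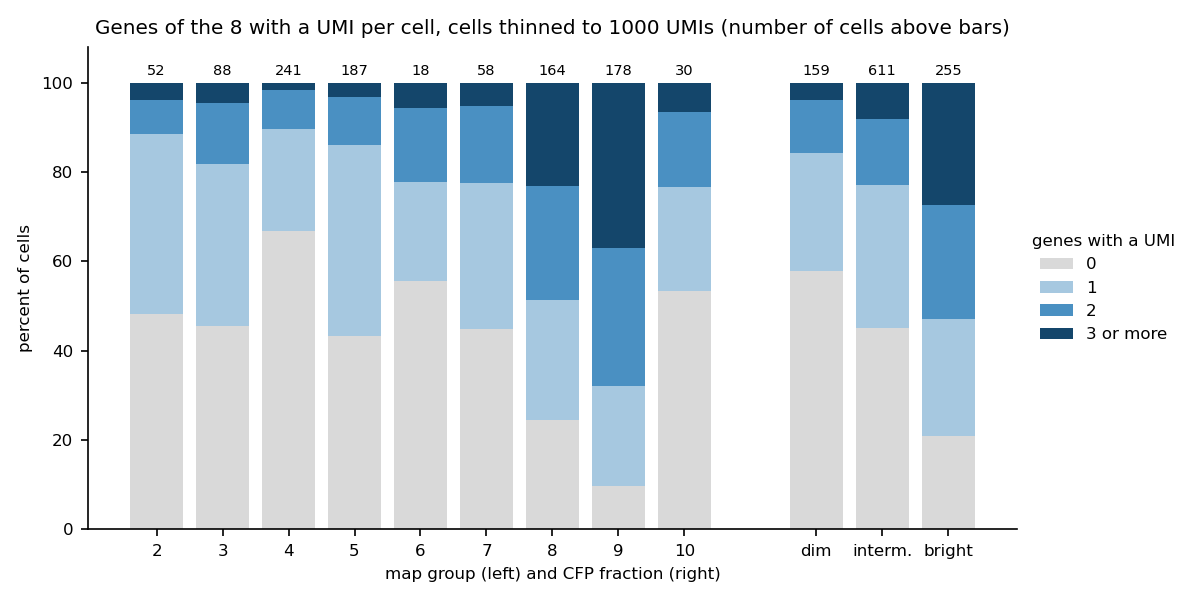
Percent of cells (vertical axis) with UMIs of 0, 1, 2 or at least 3 of the 8 genes after thinning to 1000 UMIs, by map group (left bars) and CFP fraction (right bars), with the number of cells above each bar. Group 9 has the fewest cells with none (9.55%) and group 4 the most (66.8%).

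Cells with Tk1 usually carried another of the genes. Of 114 thinned cells with Tk1, 88.6% (81.3 to 93.8%) had a UMI of at least 1 of the other 7 genes, against 53.9% (50.6 to 57.2%) of 911 cells without Tk1. Inside groups 8 to 10 the shares were 90.7% (83.1 to 95.7%) of 97 cells and 73.5% (67.8 to 78.6%) of 275 cells. The intervals did not overlap there for Tyms, Dut, Pcna and Lig1 either, but did for Rrm1, Rrm2 and 2810417H13Rik. These groups differ in level. At least 1 of the 8 genes was found in 90.4% of thinned cells of group 9, 75.6% of group 8 and 46.7% of group 10. Tk1 was found in 34.8%, 17.7% and 20% of them. The part of this mix of groups in the shares was not tested. In groups 2 to 7 only 16 cells had Tk1, and 12 of them, 75% (47.6 to 92.7%), had another gene, against 45.4% (41.4 to 49.4%) of 628 cells. For Tyms there the shares were 47.8% (26.8 to 69.4%) and 44.8% (40.8 to 48.8%), and for Rrm2 46.7% (21.3 to 73.4%) and 45.5% (41.5 to 49.5%), so these 3 pairs of intervals overlapped. For Dut in groups 2 to 7 the shares were 41.5% (33.1 to 50.3%) of 135 cells with it and 32.6% (28.6 to 36.9%) of 509 without it. Lig1 was the only gene of the 8 whose intervals did not overlap in these groups. Its shares were 58.3% (47.1 to 69.0%) of 84 cells with it and 38.75% (34.7 to 42.9%) of 560 without it.

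CFP was also compared within sets of map groups, above against below the CFP median of the plate. In groups 8 to 10 the 2 sides differed in make-up. Group 9, where these genes were highest, made up 47.5% of the 326 cells above and 31.1% of the 106 cells below, and group 8 made up 43.9% and 55.7%. The median UMIs per cell were 1928.5 above and 1395.5 below. In groups 8 to 10, 4 of the 6 genes that could be tested were called higher above the median by edgeR, beside 0.619% of all 4522 genes called higher and 0.0885% lower. Tk1 was at 345, 536, 484 and 425 CPM above the median and 111, 188, 85.2 and 284 CPM below it, in plates 2, 3, 4 and 5. The values did not overlap (log2 fold change 1.54 ± 0.29, edgeR adjusted p = 9.3e-05). Dut was at 611, 511, 587 and 609.7 CPM above and 296, 282, 284 and 379 CPM below, also without overlap (1.01 ± 0.22, edgeR adjusted p = 0.0020). Lig1 was at 839, 492, 559.7 and 661 CPM above and 388, 438, 284 and 348 CPM below (0.92 ± 0.21, edgeR adjusted p = 0.0055). Tyms was at 185, 230.4, 217 and 241 CPM above and 73.9, 125, 114 and 0 CPM below (1.52 ± 0.41, edgeR adjusted p = 0.037). Lig1 and Tyms did not overlap either. Pcna (0.59 ± 0.20, edgeR adjusted p = 0.23) and Rrm2 (2.28 ± 0.80, adjusted p = 0.23) did not pass, although both did with no filter on low counts (Pcna 0.80, adjusted p = 0.021, and Rrm2 2.49, adjusted p = 0.046). Each of the 8 genes was higher above the median in 4 of 4 plates. How many of all genes were so, or did not overlap, was not counted. The median log2 fold change over all genes was 0.072. The Tyms call was lost without any 1 of the plates (edgeR adjusted p from 0.062 to 0.43), and without plate 2 those of Dut (0.92, adjusted p = 0.0999) and Lig1 (0.74, adjusted p = 0.33) were lost too. The fit with no plate block called 0 of the 6, with Tk1 at an adjusted p of 0.064.

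The comparison was therefore repeated with each map group split at its own CFP median within a plate, an alternative chosen after seeing the data. Group 9 then made up 44.3% of the cells above and 42.8% of those below. Depth was not balanced by this split. The median UMIs per cell in groups 8 to 10 were 1984.5 above and 1554.5 below. The part of depth in the calls of this split was not tested. In groups 8 to 10, edgeR called 3 of 8 genes, beside 0.638% of 3921 genes called higher. Tk1 (0.87 ± 0.20, edgeR adjusted p = 0.0056) and Tyms (1.11 ± 0.27, adjusted p = 0.015) were still called, and Pcna was called as well (0.65 ± 0.15, adjusted p = 0.0093). Dut (0.31 ± 0.16, edgeR adjusted p = 0.58) and Lig1 (0.51 ± 0.16, adjusted p = 0.17) were no longer called.

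In groups 2 to 7 the same comparison gave 0 of 6 calls by edgeR, with 3 at an unadjusted p under 0.05, beside 0% of all 4522 genes called and 204 at an unadjusted p under 0.05. DESeq2 was not run on this comparison. Lig1 was at 225, 141, 187 and 289 CPM above the median and 137, 74.6, 160.3 and 83.6 CPM below it. It was higher in 4 of 4 plates, with ranges that overlapped (0.91 ± 0.23, edgeR adjusted p = 0.33). Tyms was at 45.1, 47.0, 51.1 and 50.5 CPM above and 6.53, 34.8, 45.8 and 15.7 CPM below (0.87 ± 0.47). Dut (0.41 ± 0.19), Pcna (0.43 ± 0.20) and Tk1 (0.40 ± 0.48) had smaller estimates, and Rrm2 was at -0.41 ± 0.80. With each map group split at its own median, 0 of 8 were called by edgeR, beside 0% of all genes, and Tk1 was at -0.20 ± 0.47. An unadjusted p under 0.05 was found for 3 of the 8 and for 169 of 3921 genes. The difference between the 2 effects was tested as an interaction, and 0 of the 6 genes were called by edgeR. Of 4522 genes, 0.199% were called higher and 289 had an unadjusted p under 0.05, as had 2 of the 6. For Tk1 the interaction was 1.14 ± 0.58 (95% interval -0.0040 to 2.28) and for Lig1 0.01 ± 0.32 (-0.63 to 0.65). For Dut it changed sign, to -0.16 ± 0.25, with each map group split at its own median. Rrm1 and 2810417H13Rik were too sparse to be tested in the fit of 4 plates split at the plate median. With each map group split at its own median all 8 genes were tested.

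**Figure D5:**
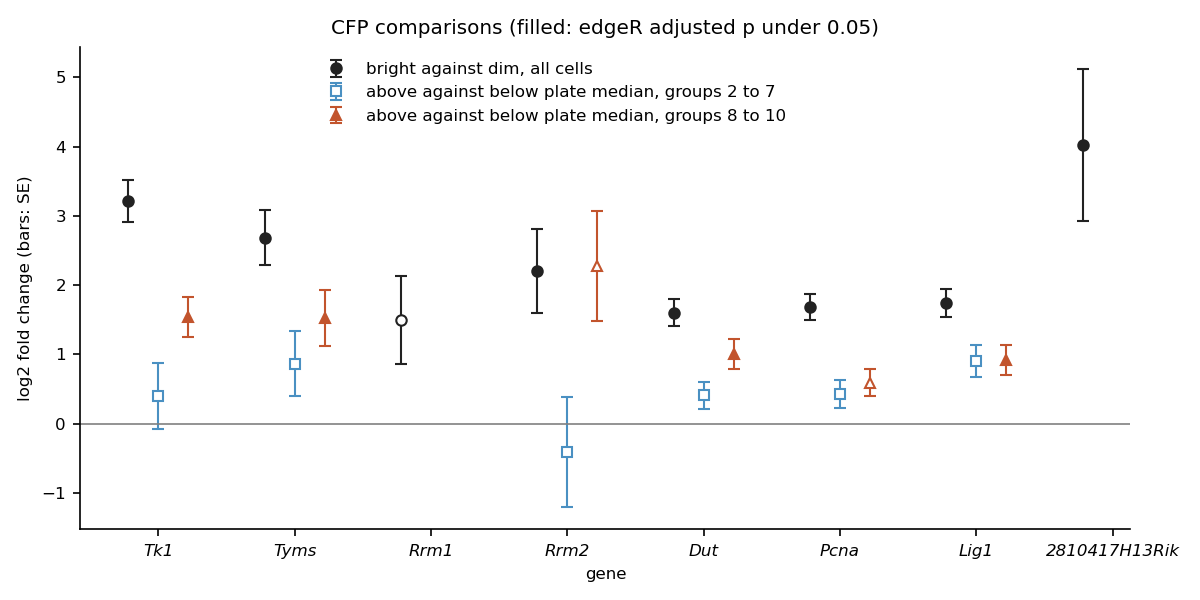
Log2 fold change (vertical axis, bars SE) of each gene for CFP bright against dim cells, and for cells above against below the plate median of CFP in groups 2 to 7 and in groups 8 to 10; filled symbols have an edgeR adjusted p under 0.05. In groups 8 to 10 Tk1, Tyms, Dut and Lig1 are filled, of which Dut and Lig1 were not called with each map group split at its own median, and in groups 2 to 7 none is.

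Forward scatter, a measure of cell size from the same sort, separated these genes little. The 20% of cells with the highest forward scatter area and the 20% with the lowest gave 0 of 7 calls by edgeR. Of 3556 genes, 0.169% were called higher and 259 had an unadjusted p under 0.05, as had 2 of the 7. DESeq2 was not run here. The summed level was 1639.9, 1644, 1882 and 1625 CPM in high and 1425, 1389.5, 1557 and 1499.7 CPM in low cells. All high values lay above all low ones, by a small margin. The cells between these sets were below both in every plate, at 1260, 1204, 1332 and 1395 CPM. The level thus did not rise steadily with forward scatter. Tk1 was at 200.2, 247, 389 and 289 CPM in high and 168, 192, 182 and 172 CPM in low cells (0.68 ± 0.23, edgeR adjusted p = 0.37). Lig1 had 0.47 ± 0.18 (0.52), Pcna 0.04 ± 0.17, Tyms -0.22 ± 0.30 and Rrm2 -0.57 ± 0.58. 2810417H13Rik was too sparse to be tested.

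Whole plates differed little in the sum of these genes, at 1375, 1336, 1495 and 1464 CPM in plates 2, 3, 4 and 5. Single genes varied more. Rrm1 was at 6.20 CPM in plate 2 (3 UMIs) and at 34.8, 48.4 and 69.2 CPM in the others. 2810417H13Rik was at 2.07 CPM in plate 2 (1 UMI) and at 36.6, 31.0 and 37.3 CPM in the others. Lig1 was highest in plate 2 and lowest in plate 3 (419.7 and 236 CPM), and Dut and Pcna varied by only 1.17-fold.

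Other genes of the 2 pathways were counted from lists of 41 nucleotide synthesis genes and 47 fork genes. In bright against dim cells, 5.61% of all genes were called higher and 3.44% lower by edgeR. Of 34 tested nucleotide synthesis genes 7 were called higher and 0 lower, with a median log2 fold change of 0.35 against -0.03 over all genes. Among them were the dCTP pyrophosphatase Dctpp1 (1.10 ± 0.16) and the mitochondrial folate enzyme Mthfd2 (3.15 ± 0.72). Also called were the nucleoside diphosphate kinases Nme1 (0.72 ± 0.16) and Nme2 (0.38 ± 0.13), thymidylate kinase Dtymk (0.92 ± 0.22) and the pyrimidine enzyme Cad (0.96 ± 0.27). Of 34 tested fork genes 20 were called higher and 0 lower, with a median of 1.26. The lowest p-values were those of the polymerase delta subunits Pold1 (1.88 ± 0.31) and Pold2 (1.74 ± 0.41), the clamp loader subunits Rfc2 (1.07 ± 0.19) and Rfc5 (1.27 ± 0.30), the licensing factor Cdt1 (1.60 ± 0.35) and its inhibitor Gmnn (1.94 ± 0.49). The checkpoint adaptor Clspn (1.83 ± 0.45) and the histone chaperone Asf1b (2.19 ± 0.55) were among them too. Pold1, for example, was at 247 ± 18.9 CPM in bright cells, 152 ± 9.98 CPM in intermediate and 65.2 ± 39.2 CPM in dim cells (SD, n = 4 plates).

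The genes whose level over groups 2 to 10 was most like the mean of the 8 were ranked by Pearson's r of log2(CPM + 10) over the 9 groups, among 2305 genes with at least 200 UMIs. All groups share the same 4 plates, and the values are a description. Pmf1 (r = 0.971), Siva1 (0.959), the helicase subunit gene Mcm7 (0.944), the primase-polymerase subunit gene Pola2 (0.943), the centromere gene Cenph (0.942), the translation factor gene Eif5a (0.937), Arpp19 (0.919) and Rbmxrt (0.908) led. Each of these 8 leading genes had its highest pooled level in group 9, except Pola2 in group 8. Among the members, Lig1 (0.87), Dut (0.86), Tk1 (0.84) and Tyms (0.84) followed the mean of the other members most closely, and Rrm1 (0.53) least.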

How the data were processed

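Per the labels' protocols, HSCs were sorted 1 to a well of 384-well plates that held barcoded primers for poly(A) RNA. The authors deposited UMI counts per gene and well (1536 wells, not normalized) and a sort record of 1430 wells. In the deposited record CFP is a log10 value, used as ranks within a plate, and forward scatter area is a linear value (an intensity, by its header). The map group is a deposited whole number with no stated meaning. The submitters' processing notes list, for the series and without roles, the builds mm10 and mm9 and the tools bcl2fastq 2.15.0.4, STAR, cutadapt, DESeq2, featureCounts and Bismark 0.19.0. For the way from reads to UMIs, a method was not given in the sources used here. Wells carry no sample name, so they could not be tied to the 8 single-cell samples or to mice. The 4 sort plates stood in as technical replicates. A stricter reading would take the table as 1 sample without a test. Bulk RNA-seq and bisulphite samples were not analysed here.

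Wells with a record and at least 500 UMIs were kept (1430 of 1430). No well name was listed more than once, and doublets were not called, since the sort put 1 cell in a well. UMIs were summed per plate and set of cells. Tests were run with edgeR 4.0.16 under R 4.3.3 (filterByExpr on the design, TMM, plate as a block, quasi-likelihood F test, Benjamini-Hochberg threshold 0.05). DESeq2 1.42.0 was an alternative. Summed libraries held 76354 to 314856 UMIs. SEs are the log2 fold change fitted without edgeR's added prior count, over the root of F. Where that value was not finite or very large, the printed one was used. The log2 fold changes printed include the prior count, and the intervals of the interaction are centred on them. Residual degrees of freedom were 6 in the CFP fit and 9 in the fit of cells above and below the CFP median, against prior values of 276 and 171, so small p-values borrow from the spread over all genes. The tests were tested on simulated data. Intervals of shares are exact binomial ones, made with scipy 1.17.1, and the limit for a count of 0 is 3 UMIs over the group. Plate numbers are the record's own, and cells of 1 plate share its handling. The members, gene lists and split of map groups were chosen with earlier results of these data known. Named list genes are the up to 8 of each list with the lowest p among those called in bright against dim cells, and all called in the other direction (0); 1 of them is not reported here.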

Additional observations from a re-analysis of the deposited data

Results flagged for a closer look

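Of 126 sets of 4 plate values of these genes, 11 had 1 plate farther from the other 3 than their spread allows, a criterion that chance meets in about 5% of sets of continuous values. In 7 of the 11 the other 3 plates were at 0, so that 1 or a few UMIs meet it by construction, and the number of such sets is not read against that 5%. Their causes were not tested. Tyms in dim cells was highest in plate 4 (78.6 CPM), and 2810417H13Rik in dim cells was found in plate 5 alone (12.8 CPM). The summed level of the 8 genes in cells of high forward scatter was highest in plate 4 (1882 CPM). In the map groups, 2810417H13Rik was found in 1 plate alone in group 2 (24.3 CPM, plate 4), group 3 (20.3 CPM, plate 4) and group 7 (71.9 CPM, plate 3). Rrm1 in group 3 was found in plate 5 alone (19.3 CPM), and Rrm2 in plate 2 alone in group 6 (124 CPM) and in group 7 (18.0 CPM). Pcna in group 4 was highest in plate 4 (219.5 CPM), and Dut in group 10 was highest in plate 3 (434 CPM).

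The 106 wells with no index record, which no comparison used, held 19 UMIs of the 8 genes in all. Their median was 224 UMIs per well.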

How the results depend on the processing

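In the alternatives run, 76 of 84 values of single genes in bright against intermediate cells kept direction and call. In bright against dim cells 77 of 84 did, and 0 reversed. Genes too sparse for an alternative were left out there, and Rrm1, called in no fit of these fractions, counts as kept. Leaving out 1 plate gave 5 to 7 called members and 257 to 368 called genes, with Rrm2 from 1.57 to 3.27, Tyms from 2.39 to 3.61 and Rrm1 from 1.43 to 2.37. Over all genes, 122 were called with no plate block, 211 by DESeq2, 138 after thinning, 21 with cells matched on UMIs (4 members) and 3 without groups 8, 9 and 10 (0 members). For bright against intermediate cells these counts were 79, 158, 119, 10 (1 member) and 0 (0 members), and 237 to 331 without 1 plate, where 2810417H13Rik was at 3.09 without plate 4. Matching on UMIs paired bright with dim cells only, so no comparison with intermediate cells was matched in depth. Intermediate against dim cells gave 0 called genes with no plate block, 20 with no filter on low counts (1 member, Dut), 4 with fractions of 10%, 0 matched on UMIs, 3 without groups 8 to 10, 2 after thinning and 1 to 3 without 1 plate. Pcna was at -0.15 there without groups 8 to 10, and Rrm2 ran from -0.26 to 1.46 without 1 plate. For forward scatter, no plate block gave 0 called genes, and Pcna was at -0.10 matched on UMIs and from -0.14 to 0.14 without 1 plate.

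In groups 8 to 10, leaving out a plate gave 1 to 3 called members and 22 to 29 called genes, and the fit with no plate block gave 0 called members and 8 called genes. With no filter on low counts 77 genes and 6 members were called, Pcna and Rrm2 among them. In groups 2 to 7, 1 gene was called with no filter, and 0 to 1 without 1 plate. With each map group split at its own CFP median, chosen after seeing the data, Tk1 was at -0.20 in groups 2 to 7, and the interaction gave 5 genes, with Dut at -0.16. The interaction gave 4 genes with no plate block, 17 with no filter and 5 to 9 without 1 plate. Lig1 in the interaction was at -0.10 with no plate block, -0.091 with the other size factors and from -0.29 to 0.32 without 1 plate, and Pcna from -0.043 to 0.31. The members' summed level after thinning was 756 CPM in group 2, 882 CPM in group 3 and 1155 CPM in group 7, while group 9 remained highest. The cause of these changes was not tested, except that matched, thinned and group-filtered fits hold fewer cells and tested fewer genes (1667, 1700 and 2466 against 4652). At a median of 1265 UMIs per cell, 3 of the 8 genes were at or under 90 UMIs in all cells, and their differences inside map groups could mostly not be detected.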
